A study of Mus musculus with 5 samples.

Results

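Exon bins are the pieces into which the exons of a gene are divided where its transcripts differ, and the share a bin takes of its gene's counts shows which pieces of the RNA were sampled. Bin use is described here for Gab2, Fgd6 and Scai, 3 of the 24538 gene names in the table, with 50 of its 243715 bins. Gab2 had 11 bins, Fgd6 21 and Scai 18. The genes were chosen by symbol, with earlier exon-usage results of these same libraries known, so their differences between the groups are given as a description, with no test. Polyadenylated RNA came from embryonic stem cells of the mouse, which are grown in culture and can form all tissues of the body. The deleted cells (2 libraries, deleted 1 and 2) lacked the -45 super-enhancer, a dense cluster of enhancers named by its position relative to the pluripotency gene Nanog, and the wildtype cells (3 libraries, wildtype 1 to 3) carried it. The labels give 6 days of treatment, either with the vehicle ethanol or with 4OHT (tamoxifen), without saying which library received which. They also do not say whether replicates came from separate clones or cultures, so spreads between libraries may be technical. Of the 3 deleted libraries that the design describes, 2 were analysed here.

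The 3 proteins act at different points between the cell surface and the nucleus. Gab2 is a docking protein that is phosphorylated downstream of receptor tyrosine kinases and cytokine receptors and recruits Grb2, the phosphatase Shp2 and PI3 kinase. Fgd6 belongs to the FGD family, guanine nucleotide exchange factors whose best-known target is the small GTPase Cdc42, a regulator of actin and membrane traffic. Scai binds the coactivator Mrtf in the nucleus and lowers transcription of targets of the serum response factor Srf. In many genes the exon at the 3' end carries the long untranslated region after the stop codon, so it often holds a large part of a gene's length. Its share of counts depends on where transcripts end as well as on how evenly reads cover them.

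Bin counts totalled 93574214 and 99133883 in the deleted libraries and 114838177 to 213042064 in the wildtype libraries, wildtype 3 being the deepest. Wildtype 3 also stood apart from its group, with a chi-square per degree of freedom over gene totals of 93.6 and 87.6 against wildtype 1 and 2, while that between wildtype 1 and 2 was 10 and that between deleted 1 and 2 was 22, a measure that grows with depth. Genes named by a symbol held 0.328% to 0.375% of each library's counts, and the rest lay under assembly IDs that the table does not pair with symbols. Reads of Gab2, Fgd6 or Scai that fall under such an ID were not analysed here. None of 13 stem cell markers had a row under its symbol, so the labelled cell type was not checked against them. Markers of other cell types were present at low levels. None of those with rows was at 0 in all libraries. Summed over 12 fibroblast markers, the level in CPM (counts per 1000000 counts of the library) was 13.6 and 13.7 in the deleted libraries and 9.22 to 12.5 in the wildtype libraries, with 5 of 7 tested markers higher in the deleted cells, where 18.9% of all tested symbols were called higher and 12.9% lower. Of the tested markers of primitive endoderm 3 of 8 and of trophectoderm 2 of 3 were lower, and of those of 2-cell-like cells 11 of 11 were higher. The sum over 8 primitive endoderm markers was 5.11 to 6.44 CPM in deleted and 7.89 to 9.07 CPM in wildtype libraries, and that over 4 trophectoderm markers 1.26 to 1.40 CPM in deleted and 2.11 to 2.33 CPM in wildtype libraries. The 13 markers of 2-cell-like cells summed to 17.1 to 17.4 CPM in deleted and 2.95 to 3.25 CPM in wildtype libraries. In RNA of whole cultures, fewer cells of a type and less RNA per cell cannot be told apart. The part of these cell types in the bin shares below was not tested.

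The genes were chosen with earlier results of the deleted against the wildtype libraries known. In edgeR's exon-usage fit of that contrast, each bin's change is set against that of its gene and combined per gene into a Simes p. Of 13045 tested genes, 360 (2.76%) had an adjusted p under 0.05, and of 1588 genes with symbols, 2 (0.126%), which were Gab2 and Fgd6. Scai had rank 4 among the symbols. Simes adjusted p-values, given as a description and not as support, were 0.000329 for Gab2, 0.0193 for Fgd6 and 0.107 for Scai with edgeR. Fgd6 missed the threshold without deleted 1, deleted 2 or wildtype 1 (edgeR adjusted p = 0.168, 1 and 0.159), and Scai passed it without wildtype 3 (0.0337). After Scai came the potassium channel gene Kcnk12, with 3.62% ± 2.84 of its counts in bin 2 in deleted libraries (SD, n = 2), against 15.2% ± 3.68 in wildtype libraries (SD, n = 3). Next was the deubiquitinase gene Usp35, with 33.7% ± 0.858 in its bin 2 in deleted and 18.5% ± 0.555 in wildtype cells (edgeR adjusted p = 0.123 for Kcnk12 and 0.146 for Usp35). The leading bin of a gene, meaning the one with the smallest p in that fit, was bin 11 in Gab2, bin 21 in Fgd6 and bin 1 in Scai. The low-count filter kept 3 of the 11 Gab2 bins, 14 of the 21 Fgd6 bins and all 18 Scai bins. At the level of bins, 541 of 149501 (0.362%) passed, 413 (0.276%) used less and 128 (0.0856%) used more in deleted cells. Of the 10223 bins of symbols, 3 (0.0293%) passed. Among the 35 tested bins of the 3 genes these were bin 11 of Gab2, used more, and bin 21 of Fgd6, used less.

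**Figure D1:**
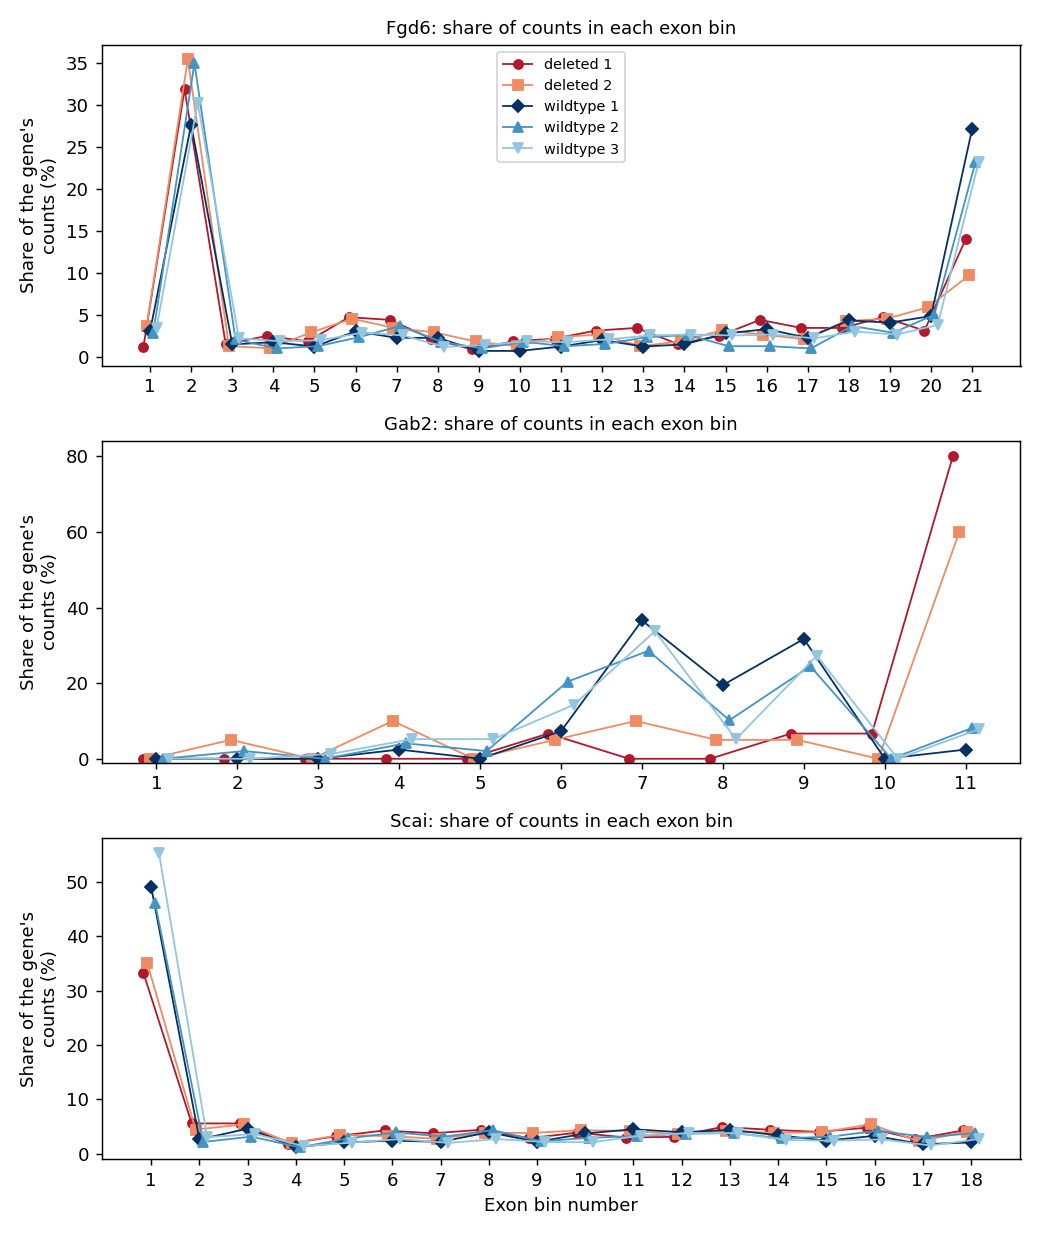
Share of each gene's counts (y axis, percent) in each exon bin (x axis, bin number) for Fgd6, Gab2 and Scai, 1 line per library, red and orange for deleted and blues for wildtype. The groups part at bin 21 of Fgd6 and, by smaller differences, at its bins 6, 11, 12 and 19. They also part at bins 6 to 9 and 11 of Gab2. Within Scai they part most at bin 1. By smaller differences they part at bin 12 of Scai, lower in deleted libraries, and at 10 of its bins that are higher. All bins of Scai besides bin 1, and of Fgd6 besides bins 2 and 21, lie below 6%.

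The bins were numbered along the genome, as far as annotated exon lengths show. In GENCODE vM21 (build GRCm38, whereas the authors' notes name mm9, so no coordinates are given), Fgd6 lies on the forward strand of chromosome 10 and its protein-coding transcript has 21 exons, as many as its bins. Scai lies on the reverse strand of chromosome 2, and its annotated transcript with the most exons has 18, again as many as its bins. Across the 21 Fgd6 bins, counts summed over the 5 libraries had a Spearman rho of 0.813 with exon lengths taken in genome order and 0.506 in the reverse order. Across the 18 Scai bins the values were 0.648 and 0.261. Bins of 1 gene share transcripts and libraries, so these are descriptions. Among 200 other forward-strand and 217 other reverse-strand symbols with equal numbers of bins and exons, genome order gave the larger rho in 92% and 90.3%. By that order bin 21 of Fgd6 is the exon at the 3' end of a forward-strand gene, 3587 nt long in the annotation, and bin 1 of Scai that at the 3' end of a reverse-strand gene, 8943 nt long. The other exons measured 31 to 2332 nt in Fgd6 and 45 to 174 nt in Scai. Gab2 lies on the forward strand of chromosome 7, with at most 10 exons in an annotated transcript against 11 bins, so its bins were not matched to exons.

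**Figure D2:**
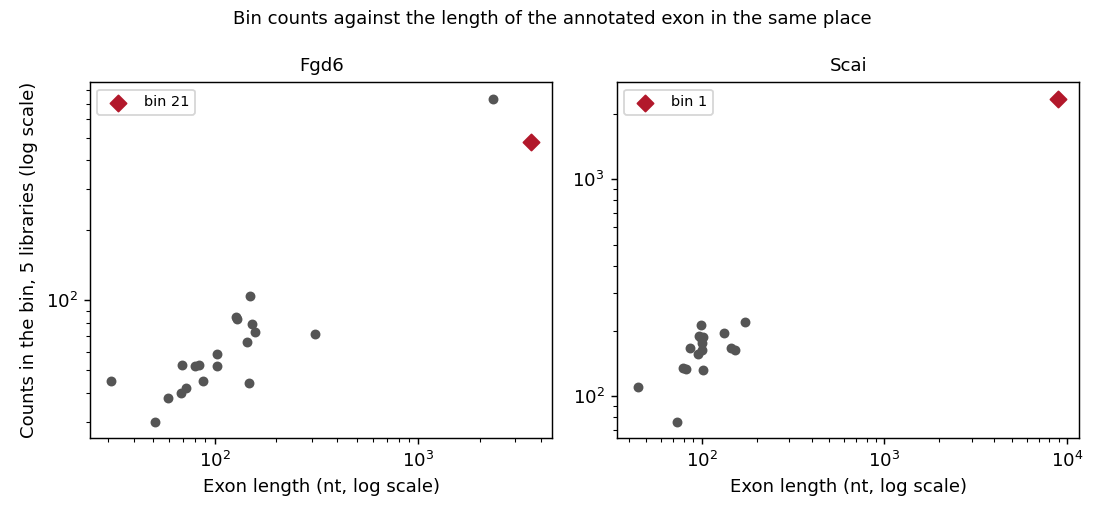
Counts in each bin summed over the 5 libraries (y axis, log scale) against the length of the annotated exon at the same place in genome order (x axis, nt, log scale) for Fgd6 and Scai. The red diamonds, bin 21 of Fgd6 at 3587 nt and bin 1 of Scai at 8943 nt, are the longest exons and had fewer counts per length than all other bins of their gene.

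Gab2 was the least counted of the 3 genes, and its counts lay in different bins in the 2 groups. Bin 11 held 12 of 15 Gab2 counts in deleted 1 and 12 of 20 in deleted 2, against 1 of 41, 4 of 49 and 6 of 77 in wildtype 1, 2 and 3. As shares these were 80% and 60% in the deleted libraries, with 95% Wilson intervals of 54.8% to 93.0% and 38.7% to 78.1%. In wildtype 1, 2 and 3 they were 2.44%, 8.16% and 7.79%, with intervals of 0.432% to 12.6%, 3.22% to 19.2% and 3.62% to 16.0%. The groups did not overlap, and neither did their intervals, which cover counting error only. The mean share was 70.0% ± 14.1 in deleted libraries (SD, n = 2), against 6.13% ± 3.20 in wildtype libraries (SD, n = 3), a difference of 63.87 percentage points, or 64.7 without wildtype 3.

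The other tested bins of Gab2, bins 7 and 9, went the opposite way, and neither passed at the level of bins (edgeR adjusted p = 0.12 and 0.32). Each tested Gab2 bin passed the low-count filter through the group where it is high, wildtype for bins 7 and 9 and deleted for bin 11. Their opposite directions are thus partly set by the filter, and by shares of a gene adding up to a fixed total. Bin 7 held 0 and 2 counts in deleted 1 and 2, against 15, 14 and 26 in wildtype 1, 2 and 3. Its share was 0% and 10% in the deleted libraries, where 0 of 15 counts allows a share of up to 20%, and 36.6%, 28.6% and 33.8% in the wildtype libraries. Bin 9 held 1 count in each deleted library and 13, 12 and 21 in wildtype 1, 2 and 3, or 6.67% and 5% of the gene in deleted against 31.7%, 24.5% and 27.3% in wildtype libraries. Both bins were lower in every deleted library than in any wildtype library.

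Of the 8 Gab2 bins that did not pass the low-count filter, bins 6 and 8 also had lower shares in both deleted libraries than in any wildtype library. Bin 6 had 1 count in each deleted library and 3, 10 and 11 in wildtype 1, 2 and 3, or 6.67% and 5% of the gene in deleted against 7.32%, 20.4% and 14.3% in wildtype libraries. Bin 8 had 0 and 1 counts in deleted 1 and 2 and 8, 5 and 4 in wildtype 1, 2 and 3. Bin 1 had 0 counts in all 5 libraries, which allows shares of up to 20% in deleted 1 and 3.90% in wildtype 3, and bins 2, 3, 4, 5 and 10 had at most 4 counts in any library. In all, shares of 4 Gab2 bins were lower and that of 1 was higher without overlap, a count that includes the untested bins 6 and 8. Among tested bins only, over all genes with symbols, 11.7% were lower and 13.6% higher in that sense. Shares of a gene add up to 100%, so its bins do not move independently.

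On the CPM scale, which does not depend on the gene's other bins, Gab2 bin 11 stood at 0.129 and 0.121 CPM in deleted 1 and 2 and at 0.00804, 0.0350 and 0.0278 CPM in wildtype 1, 2 and 3. The mean was 5.29 times as high in the deleted cells, on 12 counts or fewer per library. Its other bins together stood at 0.0321 and 0.0808 CPM in the deleted and 0.322, 0.394 and 0.329 CPM in the wildtype libraries. The means were 0.0565 ± 0.0344 CPM in deleted (SD, n = 2), against 0.348 ± 0.0398 CPM in wildtype libraries (SD, n = 3), in a ratio of 0.162. Bins 4 to 9, grouped after their values were seen, held 2 and 7 counts in deleted and 40, 44 and 70 counts in wildtype libraries, or 24.2% ± 15.3 of the gene in deleted (SD, n = 2) against 92.8% ± 4.20 in wildtype libraries (SD, n = 3). All Gab2 bins together gave 0.161 and 0.202 CPM in the deleted and 0.330, 0.429 and 0.356 CPM in the wildtype libraries, a log2 fold change of -1.02 ± 0.25 (SE), which did not pass without deleted 1 or deleted 2 (edgeR adjusted p = 0.116 and 0.0520). These totals did not overlap, as in 24.2% of tested symbols that were lower in deleted cells. The whole gene was lower in deleted cells while bin 11 was higher. For comparison, 3 counts were worth 0.0321 and 0.0303 CPM in the deleted and 0.0139 to 0.0263 CPM in the wildtype libraries.

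**Figure D3:**
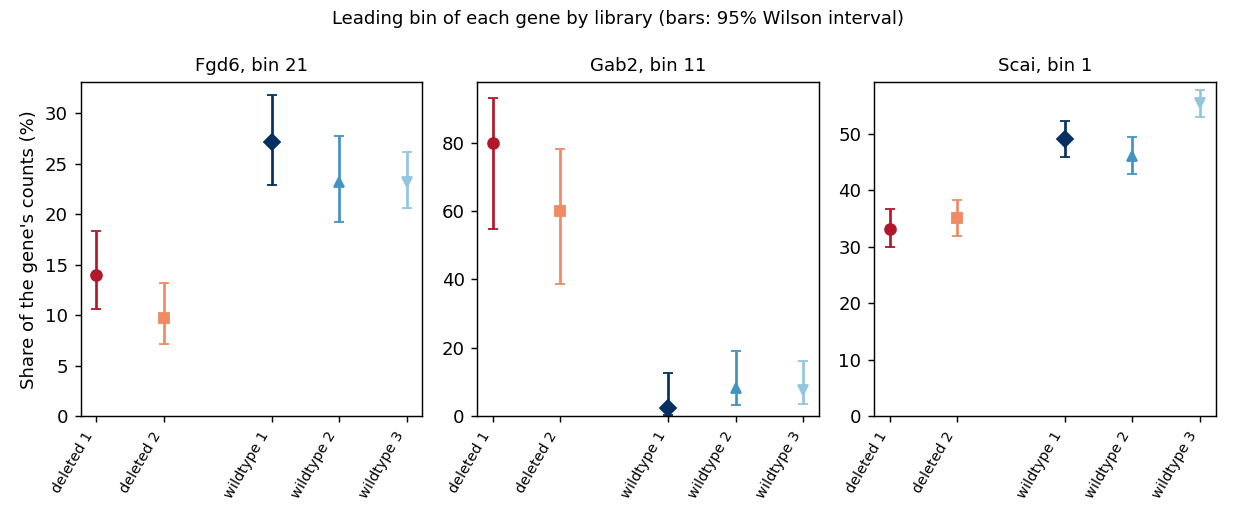
Share of the gene's counts (y axis, percent) in bin 21 of Fgd6, bin 11 of Gab2 and bin 1 of Scai in each library (x axis), with 95% Wilson intervals as bars. Deleted libraries lie below all wildtype libraries for Fgd6 and Scai and above them for Gab2, where 15 to 77 counts per library leave wide intervals.

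Fgd6 had a nearly equal total in both groups and a lower share of its 3' bin in the deleted cells. Bin 21 held 44 of 314 counts in deleted 1 and 36 of 370 in deleted 2, against 105 of 387, 87 of 375 and 205 of 882 in wildtype 1, 2 and 3. The shares were 14.0% and 9.73% in the deleted libraries (95% Wilson intervals 10.6% to 18.3% and 7.11% to 13.2%). They were 27.1%, 23.2% and 23.2% in the wildtype libraries (22.9% to 31.8%, 19.2% to 27.7% and 20.6% to 26.1%). Every deleted library lay below every wildtype library, and no interval of one group reached into the other. The mean difference was -12.65 percentage points, or -13.29 without wildtype 3.

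Bin 2 of Fgd6, which by genome order is a 2332 nt exon near the 5' end and the other bin above 10% of the gene, did not part the groups. Its share was 31.8% and 35.4% in deleted 1 and 2 and 27.6%, 34.9% and 30.3% in wildtype 1, 2 and 3. Its level was 1.20 ± 0.177 CPM in deleted libraries (SD, n = 2), against 1.08 ± 0.196 CPM in wildtype libraries (SD, n = 3).

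Of the remaining Fgd6 bins, each held 0.775% to 5.95% of the gene in any library. Shares of bins 6, 11, 12 and 19 were higher in both deleted libraries than in any wildtype library, no bin besides 21 was lower in that sense, and 16 bins overlapped. Among tested bins of symbols 13.6% were higher and 11.7% lower without overlap, whereas the Fgd6 counts also cover untested bins, bin 11 among them. Bin 6, named after its values were seen, was at 4.78% and 4.59% of the gene in deleted 1 and 2 and 3.10%, 2.40% and 2.95% in wildtype 1, 2 and 3, on 9 to 26 counts. With bin 21 left out of the total, shares of the other 20 bins differed by -2.83 to 1.58 percentage points between the groups, with 2 lower and 3 higher without overlap.

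In CPM, Fgd6 bin 21 stood at 0.472 and 0.363 in deleted 1 and 2 and at 0.844, 0.761 and 0.949 in wildtype 1, 2 and 3, without overlap. Among tested bins of genes with symbols, 19.3% were lower in deleted cells without overlap in CPM. The ratio of the means, 0.418 ± 0.0765 CPM in deleted (SD, n = 2) over 0.851 ± 0.0939 CPM in wildtype libraries (SD, n = 3), was 0.490. All other Fgd6 bins together stood at 2.89 and 3.37 CPM in the deleted and 2.27, 2.52 and 3.13 CPM in the wildtype libraries, which overlap. The gene total was 3.37 and 3.73 CPM in deleted libraries against 3.11, 3.28 and 4.08 CPM in wildtype libraries, a log2 fold change of 0.02 ± 0.14 (SE).

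**Figure D4:**
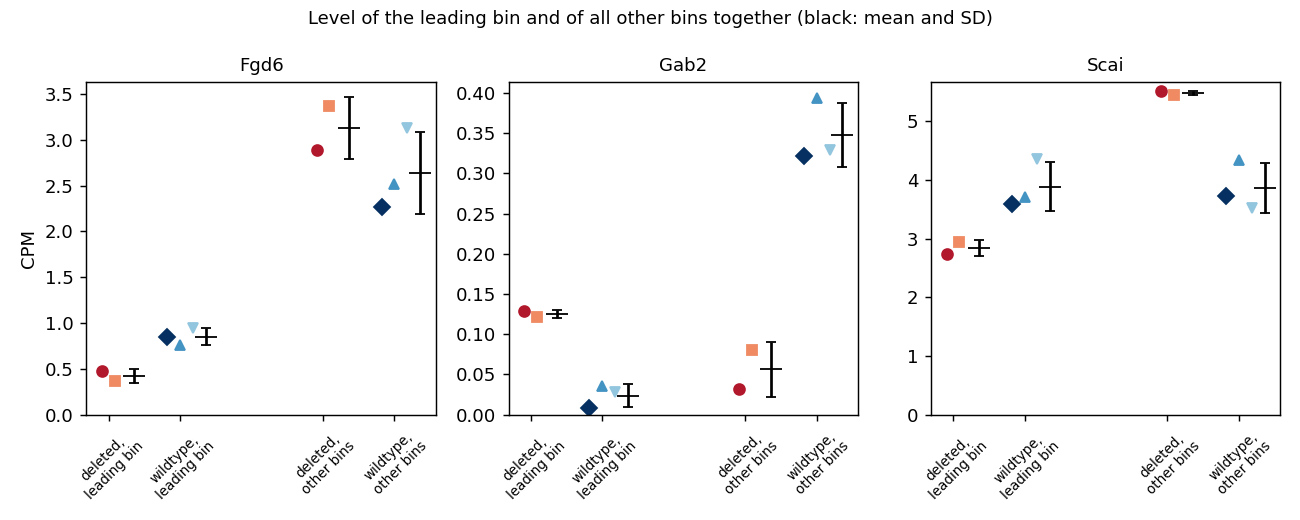
CPM (y axis) of the leading bin and of all other bins together for Fgd6, Gab2 and Scai, by group (x axis), with points for libraries and black marks for mean and SD (n = 2 deleted, n = 3 wildtype). The leading bin and the rest of the gene differed in opposite directions in Gab2 and Scai, and in Fgd6 the rest overlapped between groups.

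Scai, the most counted of the 3 genes, also had a lower share in its 3' bin in deleted cells. Bin 1 held 256 of 770 counts in deleted 1 and 291 of 831 in deleted 2, against 446 of 909, 424 of 919 and 941 of 1700 in wildtype 1, 2 and 3. The shares were 33.2% and 35.0% in the deleted libraries (95% Wilson intervals 30.0% to 36.7% and 31.9% to 38.3%). In the wildtype libraries they were 49.1%, 46.1% and 55.4% (45.8% to 52.3%, 42.9% to 49.4% and 53.0% to 57.7%). The groups did not overlap, and wildtype 3 lay above both other wildtype libraries by more than their counting intervals. The mean share was 34.1% ± 1.25 in deleted libraries (SD, n = 2), against 50.2% ± 4.71 in wildtype libraries (SD, n = 3). That is a difference of -16.05 percentage points, or -13.47 without wildtype 3.

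In Scai the other 17 bins each held 1.20% to 5.58% of the gene in any library. Shares of 10 of them were higher in both deleted libraries than in any wildtype library and that of bin 12 was lower, against 13.6% of tested bins of symbols higher and 11.7% lower in that sense. Bins 2 and 12 were named after their values were seen. Bin 12 was at 3.12% and 3.61% in deleted 1 and 2, against 3.96%, 3.70% and 3.82% in wildtype 1, 2 and 3. Bin 2, next to the 3' bin, had the largest difference among the 17. It held 5.58% and 4.45% in deleted 1 and 2, against 2.64%, 2.18% and 3.06% in wildtype 1, 2 and 3. With bin 1 left out of the total, differences among the 17 bins ranged from -2.62 to 2.25 percentage points, with 1 lower and 2 higher without overlap.

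Levels of Scai show both sides. Bin 1 stood at 2.74 and 2.94 CPM in deleted 1 and 2 and at 3.58, 3.71 and 4.35 CPM in wildtype 1, 2 and 3, a ratio of means of 0.732. The other bins together stood at 5.51 and 5.45 CPM in the deleted and 3.72, 4.33 and 3.51 CPM in the wildtype libraries, a ratio of 1.42. The groups overlapped in neither. Mean CPM of 16 of the 17 other bins was higher in deleted cells, 11 of them without overlap, against 24.1% of tested bins of genes with symbols. Bins of 1 gene share transcripts and libraries, so they do not count as independent cases. The gene total, at 8.25 and 8.39 CPM in deleted and 7.31, 8.04 and 7.87 CPM in wildtype libraries, had a log2 fold change of 0.10 ± 0.08 (SE) and did not overlap, as in 32.8% of tested symbols that were higher in deleted cells. Taken from bin 1, the most counted bin, the log2 fold change was -0.43, and over the other bins it was 0.51. Bin 1 was set apart for its smallest p in this contrast, so these directions follow in part from that choice. Bin 1 was thus lower in deleted cells and the other bins together were higher, while the difference in the total did not pass (edgeR adjusted p = 0.333).

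Per length, the 3' bins had fewer counts than the other bins of their genes, but they were also the longest exons. Bin 21 of Fgd6 had 133 counts per kb of exon over the 5 libraries, while the other Fgd6 bins had 232 to 1452, with a median of 586. Bin 1 of Scai had 264 counts per kb, against 1041 to 2444 in the other Scai bins. In Fgd6 the shortest exon, bin 5 at 31 nt, had the most, 1452. Bins 1 and 2, of 310 and 2332 nt, had 232 and 316. Position at the 3' end and exon length therefore cannot be told apart in these values. Exon lengths come from another build than the counts, and the rule by which reads were assigned to bins is not given in the sources used here.

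A lower share of the 3'-most bin in deleted cells was not particular to Fgd6 and Scai. Of 745 other symbols with at least 3 bins and at least 100 counts in every library, a limit set after the data were seen, that share was lower on average in 469 (63.0%) and higher in 268. It was lower without overlap in 191 (25.6%) and higher without overlap in 57 (7.65%). The median difference was -1.03 percentage points, with quartiles of -3.17 and 0.821. In all, 6 of the 745 had a difference as low as that of Fgd6 and 0 as low as that of Scai, which follows in part from their choice by this contrast. Gab2 had too few counts for this set, and its bin with the highest number, bin 11, was the one that was higher. Within wildtype cells, wildtype 3 lay 7.75 percentage points above the mean of wildtype 1 and 2 for Scai and differed by -1.92 for Fgd6, against a median of 0.0956 over the 745 symbols. The share of the 3'-most bin moved with the groups across symbols, and the part of this in the Fgd6 and Scai values was not tested.

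**Figure D5:**
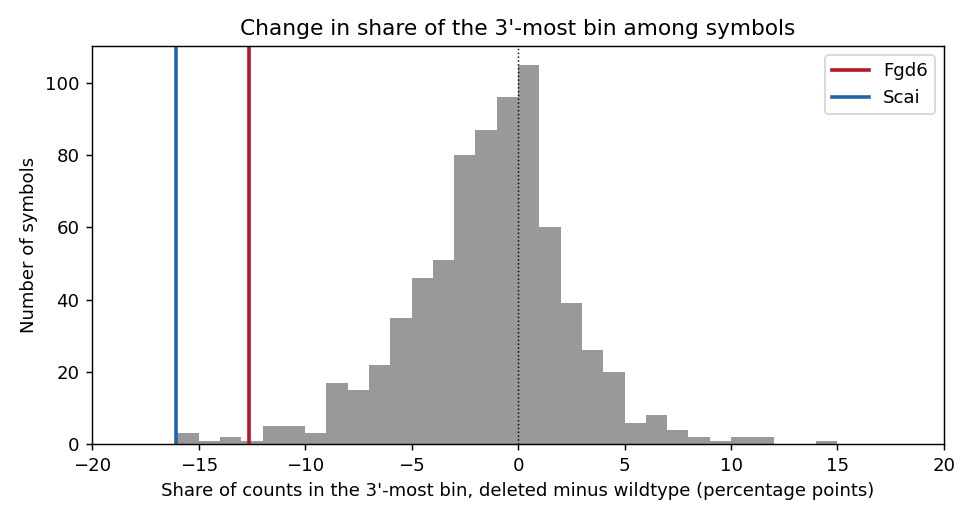
Number of symbols (y axis) by difference in share of the 3'-most bin, deleted minus wildtype, in percentage points (x axis, steps of 1), for 745 symbols with at least 100 counts in every library. Most of the distribution lies below 0, and the lines for Fgd6 at -12.65 and Scai at -16.05 lie in its low tail.

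Annotated genes that overlap the 3 were few. In GENCODE vM21, Gab2 overlapped 0 other genes, Fgd6 overlapped 2, among them a pseudogene on the opposite strand, and Scai overlapped 3, among them pseudogenes on both strands. The strand setting of the counts is not given in the sources used here, so reads from genes on opposite strands cannot be told apart.

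At the level of whole genes, 39.5% of all 16259 tested genes and 1141 of 3591 tested symbols (31.8%) passed edgeR's quasi-likelihood test at an adjusted p under 0.05. Of the symbols, 679 (18.9%) were higher and 462 (12.9%) lower in deleted cells, and the median log2 fold change was 0.0704. Other FGD family genes were read against that share. Of 3 tested, Fgd4 and Fgd5 were lower and Fgd2 did not pass, a median of -0.445. Fgd4, an exchange factor for Cdc42 linked to peripheral nerve myelin, had 3.29 and 3.77 CPM in deleted 1 and 2, against 4.58 to 5.22 CPM in the wildtype libraries (log2 fold change -0.44 ± 0.11 SE; edgeR adjusted p = 0.0139). Fgd5, an endothelial member, had 2.13 and 2.08 CPM in deleted libraries, against 2.65, 2.71 and 3.38 CPM in wildtype libraries (log2 fold change -0.48 ± 0.14 SE; edgeR adjusted p = 0.0268). Both genes were lower in each deleted library than in any wildtype library, as were 24.2% of tested symbols.

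Around Cdc42, 7 of 34 listed genes were tested, of which 1 was higher, 1 lower and 5 did not pass, with a median log2 fold change of -0.141. Dock10, an exchange factor for Cdc42, was lower, at 0.911 and 0.999 CPM in deleted libraries against 1.82 to 2.40 CPM in wildtype libraries (edgeR adjusted p = 0.00128). Cdc42ep1, an effector that binds active Cdc42, was higher, at 1.31 and 1.13 CPM in deleted libraries against 0.708 to 0.723 CPM in wildtype libraries (edgeR adjusted p = 0.00371). Arhgap31, a GTPase-activating protein for Cdc42 and Rac, had a log2 fold change of 0.50 ± 0.22 that did not pass (edgeR adjusted p = 0.107).

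Of the Gab family and its partners, 8 of 40 listed genes other than Gab2 were tested, of which 1 was higher, 3 were lower and 4 did not pass, at a median of -0.12. Pik3r1, the regulatory subunit of PI3 kinase that Gab2 recruits, was lower, at 3.22 and 3.80 CPM in deleted libraries against 4.81 to 6.35 CPM in wildtype libraries (edgeR adjusted p = 0.0125). Sos2, an exchange factor for Ras, was lower, at 3.55 and 4.10 CPM in deleted libraries against 4.63 to 5.47 CPM in wildtype libraries (edgeR adjusted p = 0.0201). The adaptor genes Shc3 and Grap2 passed at under 0.2 CPM in every library, Shc3 higher with a log2 fold change of 1.94 ± 0.49 and Grap2 lower with one of -1.69 ± 0.47 (edgeR adjusted p = 0.0168 and 0.0242). Of the 34 genes listed for Scai, Mrtf and Srf, 6 others were tested and 0 passed with edgeR, at a median of -0.447. Of these, 2 had an unadjusted p under 0.05, and limma-voom called 1 and DESeq2 0. The smooth muscle actin gene Actg2 and the calponin gene Cnn1, both known as Srf targets, had log2 fold changes of -1.44 ± 0.54 and -0.48 ± 0.18 (edgeR adjusted p = 0.0658 and 0.0719).

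Splicing regulators, genes whose products choose between exons, were listed beside these. Of 9 tested, 2 were higher, 3 lower and 4 did not pass, with a median of -0.0603. Celf2, which promotes and represses exons in muscle and brain, had 1.36 and 1.23 CPM in deleted libraries against 3.79, 3.85 and 4.11 CPM in wildtype libraries (log2 fold change -1.60 ± 0.11 SE; edgeR adjusted p = 7.91e-05). The neuronal regulators Nova1 and Nova2 went in opposite directions, with log2 fold changes of -0.72 ± 0.12 and 0.58 ± 0.15 (edgeR adjusted p = 0.00284 and 0.0194). The neuronal RNA-binding gene Elavl3 was higher by 0.80 ± 0.12 on the log2 scale (edgeR adjusted p = 0.00186). Exon usage was tested in 18 genes of the 5 lists besides the 3 described, and 0 passed with edgeR, against 0.126% of symbols. Of the 18, 2 had an unadjusted Simes p under 0.05, limma-voom called 2 and the DESeq2 model called 1.

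Genes whose total varied most like each of the 3 were found by root mean square distance of centred log2 CPM over the 5 libraries, among symbols of similar mean level. Nearest to Fgd6 were Dock3, Inpp4a and Ank3, at distances of 0.0292, 0.05 and 0.0584 among 483 candidates. Nearest to Gab2 were Otop1, Sema3d and Ppp1r12b at 0.0756, 0.0885 and 0.0961 among 1239. Nearest to Scai were Ddx26b, Prr5l and Mbnl3 at 0.0427, 0.0667 and 0.0672 among 132. Over only 5 libraries such likeness is a description.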

How the data were processed

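The authors deposited whole-number read counts per exon bin for 5 libraries of mouse embryonic stem cells. Per the submitters' processing notes, STAR and build mm9 were used. No source used here gives the STAR version, annotation, counting rule or strand setting. Library sizes and tests leave out 56 spike-in rows. Shares are a bin's counts over all counts of its gene in that library. Exon usage was fitted on the whole table with edgeR's glmQLFit and diffSpliceDGE (R 4.3.3, edgeR 4.0.16, limma 3.58.1), on bins kept by filterByExpr in genes with at least 2 such bins, with TMM factors; its coefficients, natural logs in this version, were turned into log2. Sums over bins were compared by edgeR's quasi-likelihood test. P-values were Benjamini-Hochberg adjusted over all tested genes or bins, with a threshold of 0.05. CPM use effective library sizes, and 1 count was worth 0.00463 to 0.0107 CPM. Wilson intervals (scipy 1.17.1) and the limit of 3 counts for a count of 0 cover counting error only. Log2 CPM used a prior count of 2.

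The genes, lists and tests were chosen with earlier results of these data known. Bins were named by rule where they led their gene or held at least 10% of it on average; Fgd6 bin 6, Scai bins 2 and 12 and Gab2 bins outside that rule were named after their values were seen, and named list genes were at most 4 per list by p. Both fits were run on simulated counts that were independent and of equal dispersion. That setting has no shared transcripts and no outlying library, so the check does not cover these. Alternatives covered filters, scaling, limma-voom, DESeq2 1.42.0, a replicate block and leaving out each library. No sequence is shown, since the bins carry no coordinates. Values of 1 gene near the threshold are not reported here.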

Additional observations from a re-analysis of the deposited data

How the results depend on the processing

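Directions of the 3 leading bins held under every alternative that gave a value. The Simes call of Fgd6 ended with bins of at least 10 counts in every library (log2 usage change -0.88; edgeR adjusted p = 0.0507) and without deleted 1, deleted 2 or wildtype 1 (-1.33, -0.78 and -0.98; adjusted p = 0.168, 1 and 0.159), leaving out a library giving -1.33 to -0.78. Gab2 passed in every fit that held its bin 11 and both deleted libraries, with changes of 2.81 to 3.38 without a library. It could not be fitted at 10 counts in every library. Gab2 was chosen with this contrast known, and its bin 11 passed the low-count filter through the deleted libraries. These calls are therefore a description and not support. Scai passed with limma-voom (-1.02), with a DESeq2 fit of the DEXSeq model (-0.97) and without wildtype 3 (-0.48), within -0.62 to -0.48 over single libraries left out. The tools differ in what they set a bin against: the whole gene in edgeR, the mean of the other bins in limma-voom and their sum in the DESeq2 model. Genes called for exon usage numbered 708 with limma-voom, 795 with DESeq2, 576 with the replicate block and 103 to 620 without 1 library, the lowest without deleted 1 (124 without deleted 2) and the highest without wildtype 3, against 360. Symbols called numbered 22 with limma-voom and 5 with DESeq2, against 2. The cause of these differences was not tested.

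With the other bins as denominator, differences in the leading bins were -19.04 percentage points for Fgd6, 268.4 for Gab2 and -50.14 for Scai, by construction larger. Over tested bins only, that of Gab2 was 76.79, and without 1 library 53.87 to 73.87, against 63.87. Gene totals called numbered 3206 without deleted 1 and 3864 without deleted 2, up to 8282 without wildtype 3, against 6421. The Gab2 total did not pass without deleted 1 (-0.87; edgeR adjusted p = 0.116) or without deleted 2 (-1.22; 0.0520), ranging from -1.22 to -0.87. The Fgd6 total, near 0, changed sign with all counted genes (-0.0046) and without deleted 2, wildtype 1 or wildtype 2 (-0.079, -0.076 and -0.027), from -0.079 to 0.14. The Scai total was -0.43 in its most counted bin and 0.51 without bin 1. Bin 1 was left out for its smallest p in the same contrast, so the higher rest follows in part from that choice.

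Same-numbered libraries had correlations of 0.0536 and -0.0539 in their deviations from the group means, and other-numbered libraries 0.0539 and -0.0536. The deviations of deleted 1 and deleted 2 mirror each other, and the wildtype group mean includes the outlying wildtype 3. These values therefore cannot show whether the numbers pair the samples. With the replicate block, log2 usage changes were -1.04 for Fgd6, 3.28 for Gab2 and -0.48 for Scai, and 576 genes, 5 of them symbols, were called; the calls of the 3 genes were as without it. Depth limits Gab2 most, with 15 and 20 counts in the deleted libraries.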
